A study of Mus musculus with 6 samples.

Results

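Respiratory complex I genes were followed in the mouse colon carcinoma line CT26.WT after a combined nanoparticle and light treatment. The members were the protein-coding rows whose gene symbol starts with Ndufa, Ndufb, Ndufc, Ndufs, Ndufv or Ndufaf, with pseudogene symbols left out. The rule took 47 of the 25407 gene rows: 37 subunits of the complex, 8 Ndufaf assembly factors, and Ndufa4 and Ndufa4l2, which carry the family name without being complex I subunits. The treated cells (n = 3 libraries) had received Cu2O@AuMn@HA, a nanoparticle whose name lists copper oxide, gold and manganese, together with NaHS, a hydrogen sulfide donor, and near-infrared light. The control cells (n = 3 libraries) are labelled only as the control group. All 6 libraries come from the same line, while doses, length of exposure and time of harvest were not stated in the sources used here. Particle, NaHS and light were given together, so their separate parts cannot be told apart, and the line stands for cultured tumour cells without the other cells of a tumour.

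Complex I oxidises NADH in the mitochondrial matrix, passes the electrons through a flavin and a chain of iron-sulfur clusters to ubiquinone, and pumps protons across the inner membrane. Its peripheral arm carries the flavin and the clusters, and its membrane arm carries the proton channels. The core subunits do the chemistry, and the accessory subunits surround and stabilise them. The peripheral arm's core subunits and all accessory subunits are encoded in the nucleus, the membrane arm's core subunits in mitochondrial DNA. Assembly factors bind partly built modules and leave before the complex is finished.

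Library totals were 62328377 to 70323604 estimated counts in treated and 71409968 to 81821380 in control libraries. Treated and control libraries lay apart on principal component 1 (57.1% of the variance), and on component 2 (14.4%) control library 2 stood apart from control libraries 1 and 3. Mitochondrial genes took 1.96% to 3.45% of the counts in treated libraries, with treated library 2 the highest, and 1.25% to 1.86% in control libraries. Of the 7 epithelial markers, Krt18 was at 163 ± 9.97 FPKM in treated and 65.4 ± 5.94 FPKM in control libraries (fragments scaled by gene length and library size, SD, n = 3 each), and made up most of their sum, which reached 164 to 185 FPKM in treated and 68.8 to 78.8 FPKM in control libraries. The markers did not move together: Krt18, Krt8 and Krt19 were called higher, Krt7 was called lower, with 1.55 ± 0.0711 FPKM in treated and 3.09 ± 0.156 FPKM in control libraries, and Epcam, Cdh1 and Cldn4 were at or near 0 in every library. Their part in the results was not tested. The 3 colon markers in the file summed to 0.420 to 0.540 FPKM in treated and 0.186 to 0.379 FPKM in control libraries, so the colon label rests on the line's name. Leukocyte and endothelial markers summed to less than 0.1 FPKM in every library. The 4 fibroblast markers summed to 8.35 to 9.12 FPKM in treated and 8.21 to 9.61 FPKM in control libraries, a sum carried by Pdgfrb. Pdgfrb was called lower (log2 fold change -0.27, adjusted p = 0.0437, edgeR), with overlapping groups. Only 6 of 27 alternatives called it lower, and not the adjustment for transcript GC content (-0.12, adjusted p = 0.208, edgeR). Dcn was called higher at 0.925 ± 0.106 FPKM in treated and 0.191 ± 0.026 FPKM in control libraries. Measured on bulk RNA, fewer cells of a kind and less RNA per cell cannot be told apart.

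Complex I genes moved in both directions after treatment. Of the 47 members, 16 were higher and 8 lower in treated cells (edgeR's quasi-likelihood test, Benjamini-Hochberg adjusted p under 0.05), and 23 did not pass. That share lies near the background, since 46.6% of the 16212 rows tested passed, 23.0% of them higher and 23.5% lower (3735 and 3813 rows, or 4688 and 3028 with upper-quartile scaling). The balance depended on the setting: 22 members were higher and 8 lower with upper-quartile scaling, 10 higher and 15 lower with an adjustment for transcript length, and 15 higher and 18 lower with adjustments for GC content and length together (9 and 20 in an earlier form of that adjustment). The groups did not overlap in FPKM for 34 of the 47 members, against 57.5% of all rows tested. All 47 members passed the filter on low counts. Among the 37 subunits 12 were higher, 7 lower and 18 did not pass, with a median log2 fold change of 0.079, against 0.058 over all rows tested. Among the 8 assembly factors 3 were higher, none was lower and 5 did not pass, with a median log2 fold change of 0.22. Sizes were modest: the median absolute log2 fold change was 0.26 over the subunits and 0.49 over all rows tested. That comparison sets genes of unlike level side by side. The median level in treated libraries was 40.5 FPKM for the subunits and 0.402 FPKM over all 25407 rows.

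**Figure D1:**
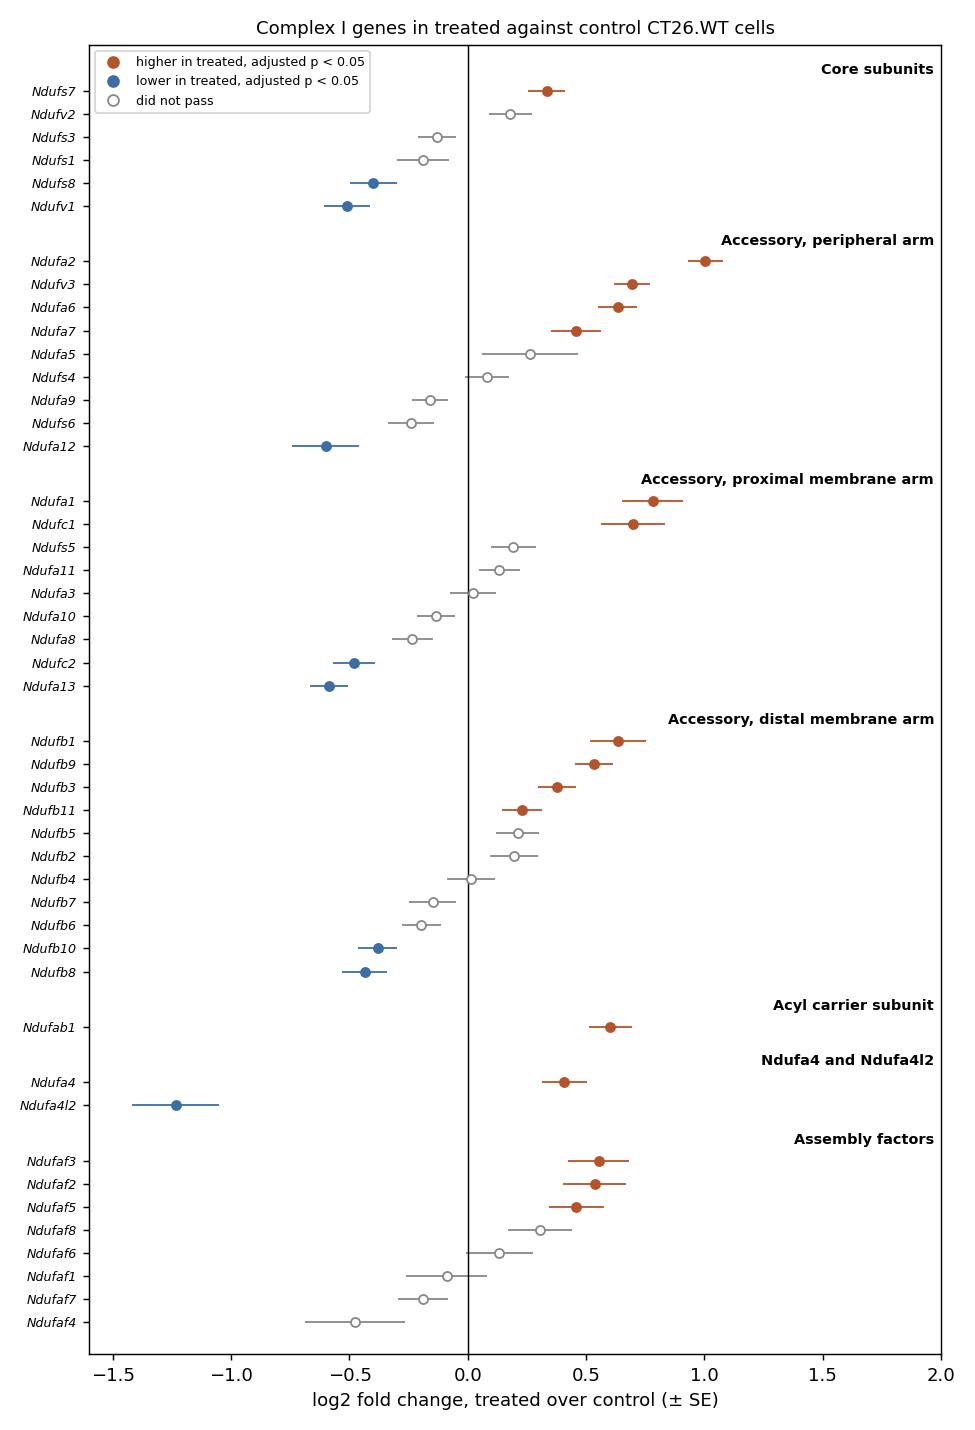
Log2 fold change, treated over control, of 46 of the 47 members with its standard error (x axis), grouped by place in the complex (y axis). Filled points passed the adjusted p threshold, orange for higher in treated cells and blue for lower, and each subunit group of more than 1 gene holds points on both sides of 0.

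Seen as a sum of FPKM, the 37 subunits reached 1854 ± 68.2 in treated and 1714 ± 31.3 in control libraries (SD, n = 3 each). The sums over places within the complex differed in direction. The peripheral accessory subunits summed to 429 ± 11.3 FPKM in treated and 311 ± 16.4 FPKM in control libraries, and the distal membrane accessory subunits to 563 ± 25.6 and 494 ± 13.5 FPKM in treated and control libraries. The proximal membrane accessory subunits summed to 471 ± 13.7 FPKM in treated and 518 ± 4.52 FPKM in control libraries. The core subunits, at 378 ± 19.6 FPKM in treated and 383 ± 11.5 FPKM in control libraries, differed by less than the spread between libraries. These sums carry no test, and a few abundant members carry most of each. In treated and control libraries Ndufa2 (peripheral) had 146 and 71.1 FPKM, Ndufb9 (distal) 185 and 125 FPKM, and Ndufc2 (proximal) 97.8 and 133 FPKM. Each of these accessory places held calls in both directions: 4 higher and 1 lower, 4 and 2, and 2 and 2. The order of levels was nearly the same in both groups, with a Spearman coefficient of 0.93 over the 37 subunits, a description across genes that share libraries. FPKM compares genes per length only as far as the authors' length fits the transcript: the length implied by count and FPKM was 7352 bases for Ndufab1 and 8643 bases for Ndufs1, against median annotated transcripts of 2448 bases for Ndufab1 and 2626 bases for Ndufs1.

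Among the 7 nuclear core subunits, 1 rose, 2 fell and 4 did not pass. Ndufv1 (ENSMUSG00000037916, chromosome 19, 4057384 to 4062759, minus strand, as the authors' file gives it), which binds the flavin and takes the electrons from NADH, had 41.3, 35.8 and 43.6 FPKM in treated libraries 1 to 3, against 54.2, 58.6 and 54.9 FPKM in control libraries 1 to 3. All treated libraries lay below all control libraries, and the log2 fold change was -0.51 (SE 0.0979, adjusted p = 0.00196, edgeR). Ndufs8, which carries iron-sulfur clusters on the way to ubiquinone, had 42.3, 44.0 and 51.4 FPKM in treated and 62.6, 54.4 and 61.0 FPKM in control libraries. The groups did not overlap, and Ndufs8 fell by 0.40 on the log2 scale (SE 0.0996, adjusted p = 0.00832, edgeR). Ndufs7, which carries the last cluster before ubiquinone, went the other way, with 42.0, 42.0 and 45.2 FPKM in treated and 33.7, 33.4 and 33.0 FPKM in control libraries. Its log2 fold change was 0.33 (SE 0.0778, adjusted p = 0.00589, edgeR), and this call was lost with an adjustment for transcript length (0.15, adjusted p = 0.170).

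Values are given for 3 of the core subunits that did not pass. Ndufv2, the partner of Ndufv1 with a cluster of its own, had 59.9, 61.5 and 66.1 FPKM in treated and 59.4, 47.3 and 55.2 FPKM in control libraries. For Ndufv2 the groups only just missed each other, and control library 2 was the lowest. Ndufs3, a structural core subunit near the ubiquinone pocket, had 29.6, 26.5 and 29.7 FPKM in treated and 31.1, 29.2 and 31.3 FPKM in control libraries. Ndufs1, the largest core subunit of the peripheral arm and the holder of several clusters, had 4.88, 5.65 and 4.31 FPKM in treated and 6.15, 4.83 and 5.55 FPKM in control libraries. The groups overlapped for Ndufs1 and Ndufs3, and the log2 fold changes of the 3 genes lay between -0.19 for Ndufs1 and 0.18 for Ndufv2. Ndufs1 was called lower in 7 of 27 alternatives, among them the adjustment for GC content (-0.37, adjusted p = 0.000583, edgeR).

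The peripheral accessory subunits held the member with the largest rise. Of these 9 genes 4 rose, 1 fell and 4 did not pass. Ndufa2 (ENSMUSG00000014294, chromosome 18, 36875385 to 36877610, minus strand, as the authors' file gives it) is a small thioredoxin-like subunit of the arm. It had 144, 147 and 147 FPKM in treated and 71.0, 68.0 and 74.2 FPKM in control libraries. The lowest treated library lay far above the highest control library, and the log2 fold change was 1.0 (SE 0.0722, adjusted p = 5.42e-06, edgeR), at 0.97 to 1.02 with any 1 library left out. Ndufv3, a neighbour of the flavin subunits, had 43.2, 40.3 and 44.7 FPKM in treated and 26.8, 25.5 and 25.0 FPKM in control libraries. Its groups did not overlap, with a log2 fold change of 0.69 (SE 0.0767, adjusted p = 6.82e-05, edgeR). Ndufa6, which anchors an acyl carrier protein to the arm, had 40.9, 44.7 and 40.3 FPKM in treated and 25.1, 27.5 and 26.4 FPKM in control libraries. Every treated library was higher, and the log2 fold change of Ndufa6 was 0.63 (SE 0.0823, adjusted p = 0.000189, edgeR). Ndufa7 also rose, with a log2 fold change of 0.46, but not with the adjustment for transcript length (0.16, adjusted p = 0.258, edgeR).

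Ndufa12 was the peripheral accessory subunit that fell. It takes its place in the complex late, where the assembly factor Ndufaf2 sat before. Ndufa12 had 21.7, 20.8 and 23.2 FPKM in treated and 37.0, 24.1 and 36.5 FPKM in control libraries. Control library 2 lay close to the treated libraries and the other controls far above them, and the log2 fold change was -0.60 (SE 0.14, adjusted p = 0.00614, edgeR), or -0.78 without control library 2. The row Ndufa12-ps, a copy on chromosome 5, held 2570 to 3031 estimated counts in treated and 2888 to 4932 in control libraries, against 2301 to 2721 and 3263 to 4654 for Ndufa12 in treated and control libraries. Reads of the gene and its copy may be split between the rows. With the copies added to their genes, the log2 fold change of Ndufa12 was -0.53 (adjusted p = 0.0169, edgeR). Ndufa5, Ndufa9, Ndufs4 and Ndufs6 did not pass, with log2 fold changes between -0.24 for Ndufs6 and 0.26 for Ndufa5. Of 27 alternatives, 8 called Ndufs6 lower, 6 called Ndufa9 lower and 5 called Ndufs4 lower, and none called Ndufa5. The groups of Ndufs6 did not overlap.

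In the proximal part of the membrane arm 2 accessory subunits rose, 2 fell and 5 of 9 did not pass. Ndufa1, a small single-pass membrane subunit encoded on the X chromosome, had 31.1, 31.3 and 29.0 FPKM in treated and 16.8, 16.5 and 18.6 FPKM in control libraries. Its log2 fold change of 0.78 (SE 0.13, adjusted p = 0.00084, edgeR) was the second largest rise among the members. Ndufc1 had 15.2, 14.8 and 15.8 FPKM in treated and 9.34, 10.4 and 7.77 FPKM in control libraries. Both genes were higher in every treated library than in any control library, and the log2 fold change of Ndufc1 was 0.70 (SE 0.135, adjusted p = 0.00209, edgeR). It was 0.39 (adjusted p = 0.0537, edgeR), past the threshold no longer, in the earlier form of the adjustment for GC content and length together. Ndufc2, which sits beside Ndufc1 in the membrane, moved the opposite way, with 93.4, 105 and 95.6 FPKM in treated and 129, 144 and 126 FPKM in control libraries. Ndufc2 fell by 0.48 on the log2 scale (SE 0.0892, adjusted p = 0.0016, edgeR). Ndufa13, also known as GRIM-19, reaches from the membrane towards the peripheral arm. It had 47.9, 41.6 and 46.9 FPKM in treated and 68.2, 65.8 and 65.8 FPKM in control libraries, without overlap, and a log2 fold change of -0.59 (SE 0.0805, adjusted p = 0.000264, edgeR). Ndufa3, Ndufa8, Ndufa10, Ndufa11 and Ndufs5 did not pass, with log2 fold changes between -0.23 for Ndufa8 and 0.19 for Ndufs5. Ndufa8 lay close to the threshold (adjusted p = 0.0522, edgeR), without overlap between groups. Of 27 alternatives, 11 called Ndufa8 lower and 8 called Ndufs5 higher.

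In the distal part of the membrane arm 4 of the 11 accessory subunits rose, 2 fell and 5 did not pass. Ndufb9, one of the proteins that hold an acyl carrier protein to the complex, was the most abundant member in treated cells, with 187, 177 and 192 FPKM in treated and 118, 122 and 134 FPKM in control libraries. The groups were far apart, with a log2 fold change of 0.53 (SE 0.0822, adjusted p = 0.000545, edgeR). Ndufb1, a short membrane subunit, had 13, 12.3 and 13 FPKM in treated and 8.09, 7.93 and 8.04 FPKM in control libraries. Libraries of a group lay within 1 FPKM of each other, and the log2 fold change of Ndufb1 was 0.63 (SE 0.12, adjusted p = 0.00182, edgeR). Its span overlaps that of Cpsf2 on the other strand by 1081 bases, so reads may be shared between them if the counting did not use strand, which was not tested.

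The fallen distal subunits were Ndufb8 and Ndufb10. Ndufb8 had 37.6, 32.6 and 40.2 FPKM in treated and 47.6, 49.2 and 49.2 FPKM in control libraries, with a log2 fold change of -0.44 (SE 0.0956, adjusted p = 0.0042, edgeR). Ndufb10 had 54.1, 46.8 and 52.1 FPKM in treated and 64.7, 65.7 and 64.1 FPKM in control libraries, with a log2 fold change of -0.38 (SE 0.0811, adjusted p = 0.00354, edgeR). In both genes treated library 2 was the lowest and no treated library reached a control library. Ndufb3 and Ndufb11 rose by 0.38 and 0.23 on the log2 scale, but neither call was firm. Ndufb3 did not pass with an adjustment for transcript GC content (0.12, adjusted p = 0.465, edgeR, and -0.021 in an earlier form of that adjustment). Ndufb11 passed at an adjusted p of 0.0477 (edgeR) and did not pass when any library other than treated library 2 was left out, with log2 fold changes of 0.14 to 0.25. Ndufb2, Ndufb4, Ndufb5, Ndufb6 and Ndufb7 did not pass, with log2 fold changes between -0.20 for Ndufb6 and 0.21 for Ndufb5. Of 27 alternatives, 7 called Ndufb6 lower, 4 called Ndufb7 lower and 6 called Ndufb5 higher, and none called Ndufb4. Ndufb2 was called higher in 3 of the 26 alternatives that gave it a value. The groups did not overlap for Ndufb2, Ndufb5 and Ndufb6.

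Ndufab1 is the mitochondrial acyl carrier protein itself. It serves fatty acid and lipoic acid synthesis and is bound in the complex by Ndufa6 and Ndufb9, which rose as well. Ndufab1 had 11.7, 11.6 and 12.8 FPKM in treated and 7.99, 8.10 and 7.12 FPKM in control libraries. The groups did not overlap, and the log2 fold change was 0.60 (SE 0.0907, adjusted p = 0.000474, edgeR). With the GC content adjustment it was 0.38 (adjusted p = 0.0535, edgeR), past the threshold no longer. Its copy row Ndufab1-ps, with 5.96 ± 0.29 FPKM in treated and 3.54 ± 0.24 FPKM in control libraries (SD, n = 3 each), moved in the same direction (log2 fold change 0.71, adjusted p = 0.0124, edgeR).

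**Figure D2:**
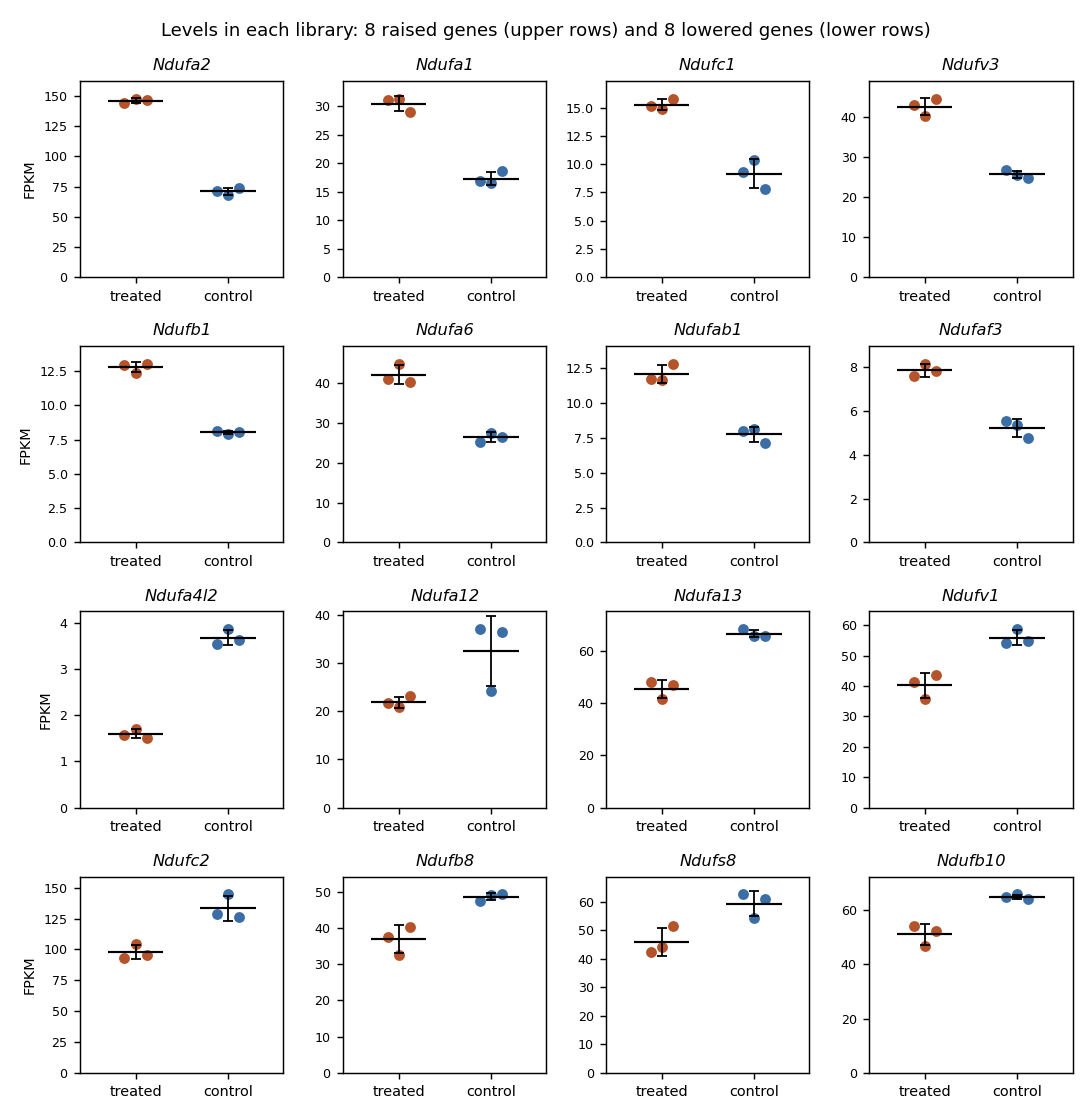
FPKM (y axis, from 0) in each of the 3 treated (left) and 3 control (right) libraries for the 8 members with the largest rise and the 8 with the largest fall among those past the threshold. Lines and bars are the mean and SD, and no panel shows an overlap between groups, with Ndufa2 at 144 to 147 FPKM in treated libraries.

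Ndufa4 and Ndufa4l2 changed in opposite directions. Ndufa4 is now counted among the subunits of complex IV, cytochrome c oxidase. It had 55.2, 58.4 and 54.1 FPKM in treated and 47.5, 35.4 and 40.6 FPKM in control libraries, with a log2 fold change of 0.41 (SE 0.0944, adjusted p = 0.00569, edgeR). The groups did not overlap, control library 1 being the nearest to the treated ones. With GC content and length adjusted together, Ndufa4 was called lower in treated cells (-0.21, adjusted p = 0.0423, edgeR). The earlier form of that adjustment did not call it (-0.19, adjusted p = 0.0631, edgeR). Of 27 alternatives, 19 called Ndufa4 higher, 1 lower and 7 did not call it. The part of transcript composition was not tested. Ndufa4l2, its paralog, is known as a gene induced by hypoxia. Its row (ENSMUSG00000040280) lies on chromosome 10, 127350836 to 127352922, plus strand, as the authors' file gives it. It had 1.58, 1.71 and 1.52 FPKM in treated and 3.54, 3.86 and 3.63 FPKM in control libraries. Ndufa4l2 showed the largest fall of the 47 members, with a log2 fold change of -1.23 (SE 0.18, adjusted p = 0.000435, edgeR), and all treated libraries lay at less than 2 FPKM and all control libraries at more than 3 FPKM.

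At the median, assembly factors stood below the subunits in level: 6.46 against 40.5 FPKM in treated and 5.26 against 33.4 FPKM in control libraries. The ranges overlapped, with 0.792 to 16.0 FPKM for assembly factors and 3.49 to 185 FPKM for subunits in treated libraries. Summed, the 8 assembly factors reached 59.6 ± 1.75 FPKM in treated and 48.9 ± 1.94 FPKM in control libraries (SD, n = 3 each). The summed subunits were 31.1 ± 0.43 times the summed assembly factors in treated and 35.1 ± 1.17 times in control libraries, without overlap, a description with no test. The ratio sets 37 subunits against 8 assembly factors, so it also reflects the number of genes. As counts, 3 of 8 assembly factors and 12 of 37 subunits were higher, and none of 8 and 7 of 37 were lower. With so few assembly factors these shares were not tested against each other.

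The raised assembly factors were Ndufaf2, Ndufaf3 and Ndufaf5. Ndufaf3, which works with Ndufaf4 on the early module around the ubiquinone pocket, had 7.58, 8.12 and 7.79 FPKM in treated and 5.53, 5.34 and 4.74 FPKM in control libraries. Its log2 fold change was 0.55 (SE 0.13, adjusted p = 0.00569, edgeR), and it passed in all 6 adjustments for GC content, length or both. Ndufaf2, the placeholder for Ndufa12, had 3.93, 3.76 and 4.22 FPKM in treated and 2.75, 2.59 and 2.66 FPKM in control libraries. Ndufaf2 rose by 0.54 on the log2 scale (SE 0.133, adjusted p = 0.00806, edgeR) while Ndufa12 fell, though with the length adjustment Ndufaf2 no longer passed (0.27, adjusted p = 0.105, edgeR). Ndufaf5, an enzyme that hydroxylates an arginine of Ndufs7, had 11, 12.1 and 12.1 FPKM in treated and 9.33, 7.60 and 8.16 FPKM in control libraries. The log2 fold change of Ndufaf5 was 0.46 (SE 0.12, adjusted p = 0.00851, edgeR), and it was 0.23 (adjusted p = 0.106, edgeR) in the earlier form of the GC content adjustment. None of the 3 genes showed overlap between groups. Ndufaf2 and Ndufaf3 have neighbours on the opposite strand. The span of Ndufaf2 shares 4727 bases with Smim15, which held a mean of 921.5 estimated counts against 751 for Ndufaf2. That of Ndufaf3 shares 48 bases with Impdh2, which held a mean of 29088 estimated counts against 901 for Ndufaf3. Whether reads were shared was not tested.

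The other 5 assembly factors did not pass. Ndufaf8, the partner of Ndufaf5, had 17.0, 13.9 and 17.1 FPKM in treated and 13.1, 12.1 and 12.8 FPKM in control libraries. Ndufaf6, needed early for the mitochondrially encoded subunit mt-Nd1, had 9.31, 9.77 and 9.90 FPKM in treated and 7.59, 9.27 and 8.84 FPKM in control libraries. Ndufaf1, a factor of the early membrane module, had 5.69, 4.53 and 5.08 FPKM in treated and 6.16, 4.2 and 5.60 FPKM in control libraries. Of these, Ndufaf1 overlapped between groups, while the treated libraries of Ndufaf6 and Ndufaf8 lay just above the control libraries. Ndufaf7, an arginine methyltransferase of the mitochondrial matrix, had 4.63, 4.74 and 4.15 FPKM in treated and 4.97, 4.82 and 5.24 FPKM in control libraries. Ndufaf4, the partner of Ndufaf3, had 1.0, 0.684 and 0.690 FPKM in treated and 1.21, 0.863 and 1.16 FPKM in control libraries. The Ndufaf4 groups overlapped, with a log2 fold change of -0.48 (SE 0.21, adjusted p = 0.0933, edgeR). Its transcript has the lowest GC content of all members, at 39.5%. With the GC content adjustment Ndufaf4 was called lower at -1.27 (adjusted p = 0.00138, edgeR), as was Ndufaf7 at -0.37 (adjusted p = 0.0107, edgeR). Ndufaf8 was then called higher at 0.39 (adjusted p = 0.0106, edgeR), so 4 assembly factors were higher and 2 lower with that adjustment.

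**Figure D3:**
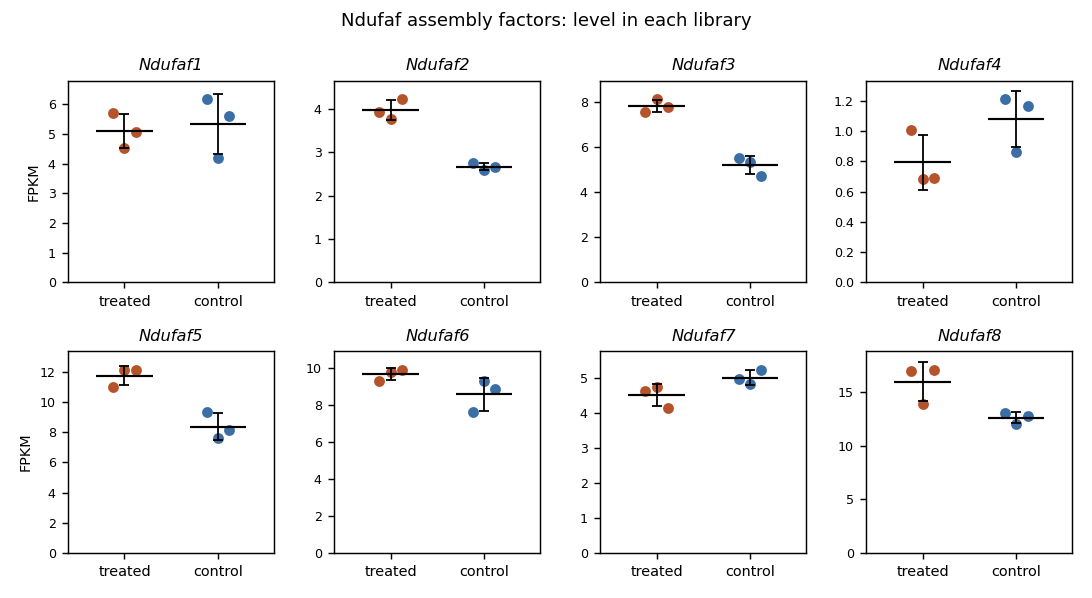
FPKM (y axis, from 0) of the 8 Ndufaf assembly factors in each of the 3 treated (left) and 3 control (right) libraries, with mean and SD. The groups lie clearly apart for Ndufaf2, Ndufaf3 and Ndufaf5 and overlap for Ndufaf1 and Ndufaf4.

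The 7 membrane core subunits from mitochondrial DNA did not move together. Of these, mt-Nd4 and mt-Nd4l, whose coding regions overlap on a shared transcript, were higher, mt-Nd2 and mt-Nd3 were lower, and mt-Nd1, mt-Nd5 and mt-Nd6 did not pass. mt-Nd4 had 400, 853 and 545 FPKM in treated and 313, 240 and 262 FPKM in control libraries, with a log2 fold change of 1.11 (SE 0.23, adjusted p = 0.00282, edgeR). mt-Nd2 had 476, 908 and 600 FPKM in treated and 1203, 907 and 987 FPKM in control libraries, with a log2 fold change of -0.67 (SE 0.20, adjusted p = 0.0194, edgeR). For mt-Nd4 the groups did not overlap, while for mt-Nd2 treated library 2 just passed the lowest control library. mt-Nd4l had 230, 550 and 352 FPKM in treated and 211, 170 and 169 FPKM in control libraries. mt-Nd3 had 105, 174 and 122 FPKM in treated and 292, 208 and 214 FPKM in control libraries. The log2 fold change was 1.01 for mt-Nd4l and -0.86 for mt-Nd3, and in each case the groups did not overlap. Without treated library 2 the log2 fold change of mt-Nd4l was 0.63, and mt-Nd1 was called lower (-0.49, adjusted p = 0.0187, edgeR). mt-Nd5, the most abundant of those that did not pass, had 528, 974 and 670 FPKM in treated and 876, 697 and 716 FPKM in control libraries. mt-Nd6 lies on the minus strand and the other genes on the plus strand, and its span overlaps that of mt-Nd5. Reads may be shared between them if the counting did not use strand, which was not tested.

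Treated library 2 was the highest treated library for all 7 genes, so ratios within a library were steadier than levels. The FPKM of mt-Nd4 was 0.896 ± 0.051 of that of mt-Nd2 in treated and 0.263 ± 0.003 in control libraries (SD, n = 3 each). Summed, the 7 genes reached 3665 ± 1252 FPKM in treated and 3690 ± 556 FPKM in control libraries, a difference far inside the spread. The call of mt-Nd2 was lost without treated library 1 or 3 or without control library 1, with log2 fold changes of -0.49 to -0.63. With the GC content adjustment none of the 7 was higher and 5 were lower, and mt-Nd4 stood at -0.12. The median GC content of these transcripts was 35.7%, and its part in the result was not tested.

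**Figure D4:**
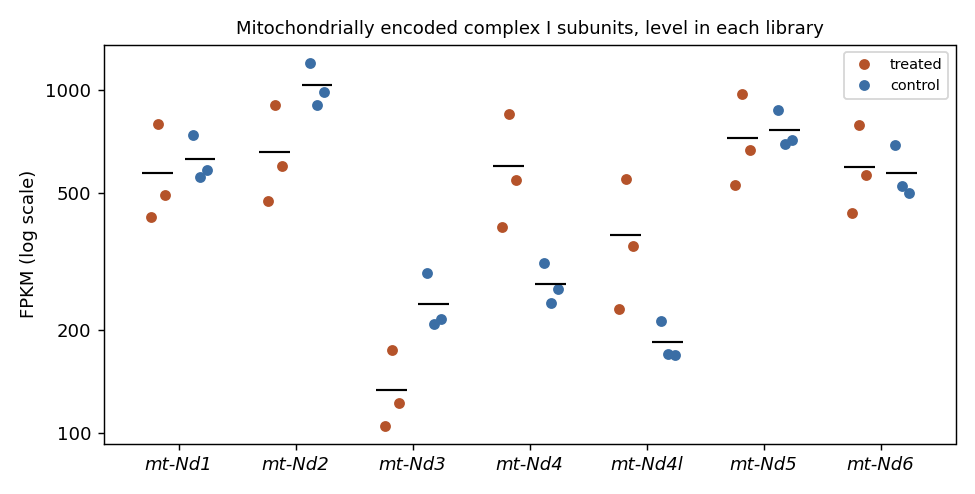
FPKM (y axis, log scale) of the 7 mitochondrially encoded complex I subunits in each treated (left) and control (right) library, with lines at the means. mt-Nd4 and mt-Nd4l lie higher and mt-Nd3 lower in all treated libraries than in any control library.

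Assembly factors outside the Ndufaf family also went both ways. Of 12 such genes 2 rose, 5 fell and 5 did not pass. Tmem126b, which belongs to the early membrane assembly complex with Ndufaf1, rose the most, with 2.76, 3.20 and 2.38 FPKM in treated and 1.29, 0.777 and 0.974 FPKM in control libraries and a log2 fold change of 1.42 (SE 0.19, adjusted p = 0.000254, edgeR). Tmem70, which assists both complex I and ATP synthase, also rose (16.1 ± 2.13 FPKM in treated, 10.2 ± 1.28 FPKM in control, log2 fold change 0.63, adjusted p = 0.00213), but not in the earlier form of the GC content adjustment (0.20, adjusted p = 0.110, edgeR). Aifm1, which helps to import assembly proteins into the intermembrane space, fell to 17.4 ± 1.22 FPKM in treated, against 25.0 ± 1.09 FPKM in control libraries (log2 fold change -0.56, adjusted p = 0.000288). Foxred1, a late assembly factor, fell to 5.64 ± 0.53 FPKM in treated, against 8.03 ± 0.43 FPKM in control libraries (log2 fold change -0.54, adjusted p = 0.00273). Acad9, Tmem186 and Ecsit, the partners of Tmem126b and Ndufaf1 in the early membrane complex, passed in the lower direction, at log2 fold changes of -0.46, -0.52 and -0.32. The call of Tmem186, whose groups overlapped, was lost without control library 2 or 3 or treated library 2 or 3 (log2 fold changes of -0.42 to -0.52), and that of Ecsit without control library 1 or 2 or treated library 2 (-0.29 to -0.31). Ecsit was also not called with the GC content adjustment (-0.18, adjusted p = 0.0871, edgeR) or with upper-quartile scaling (-0.20). Dmac1, the most abundant gene of the list that did not pass, had 33.5 ± 2.11 FPKM in treated and 35.7 ± 1.84 FPKM in control libraries.

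Among 9 regulators of mitochondrial biogenesis 2 rose and 3 fell. Pprc1, a coactivator of the PGC-1 family, had 4.05, 3.76 and 3.83 FPKM in treated and 12.1, 12.8 and 12.9 FPKM in control libraries. The groups were far apart, with a log2 fold change of -1.73 (SE 0.0804, adjusted p = 8.65e-07, edgeR). Nrf1, a transcription factor of many respiratory chain genes, fell by 0.27 on the log2 scale (3.21 ± 0.15 FPKM in treated, 3.79 ± 0.12 FPKM in control, adjusted p = 0.0182). Yy1, another factor of such genes, rose by 0.39 (5.83 ± 0.68 FPKM in treated, 4.34 ± 0.59 FPKM in control, adjusted p = 0.0156). The call of Nrf1 was lost in 10 alternatives, among them without control library 3 (-0.28), with the GC content adjustment (-0.15, adjusted p = 0.0699, edgeR) and with upper-quartile scaling (-0.15). The call of Yy1 was lost without control library 2 or 3 or treated library 1 or 2 (0.30 to 0.35). Ppargc1a, the coactivator PGC-1α, passed at a very low level, with 0.115 ± 0.0258 FPKM in treated and 0.0341 ± 0.0164 FPKM in control libraries, and not without treated library 1 or 2 (log2 fold changes of 1.49 and 1.69). Ppargc1b, its close relative, fell (log2 fold change -0.62, adjusted p = 0.0387), at 0.402 ± 0.0578 FPKM in treated and 0.603 ± 0.0843 FPKM in control libraries, and the call was lost with any library other than control library 2 left out (-0.55 to -0.73) and with the GC content adjustment (-0.51, adjusted p = 0.0728, edgeR). Esrra, a nuclear receptor and the most abundant gene of the list, had 22.6 ± 2.1 FPKM in treated and 19.5 ± 0.53 FPKM in control libraries and did not pass. Its groups did not overlap, and 9 of 27 alternatives called Esrra higher. The GC content adjustment was among them (0.23, adjusted p = 0.00514, edgeR), its earlier form was not (0.13).

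Among 7 mitochondrial proteases 2 rose and 1 fell. Yme1l1, which degrades proteins at the inner membrane, had 3.77, 6.14 and 3.17 FPKM in treated and 1.25, 0.892 and 1.32 FPKM in control libraries. All treated libraries were higher, and the log2 fold change was 1.88 (SE 0.23, adjusted p = 0.000134, edgeR), or 0.88 with the GC content adjustment. Clpx, the unfolding partner of the ClpP protease, which turns over the flavin end of complex I, rose by 0.92 (5.50 ± 1.13 FPKM in treated, 2.84 ± 0.55 FPKM in control, adjusted p = 0.00182). Spg7 fell by 0.29 on the log2 scale (10.3 ± 0.62 FPKM in treated, 12.2 ± 0.76 FPKM in control, adjusted p = 0.0167), a call lost without control library 3 (-0.26), with the GC content adjustment (-0.15, adjusted p = 0.0844, edgeR) and with upper-quartile scaling (-0.16). Lonp1, the main matrix protease and the most abundant of the list, did not pass, with 106 ± 5.30 FPKM in treated and 115 ± 5.09 FPKM in control libraries.

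Transcript composition and length moved with the fold changes. Over all tested rows with an annotated transcript the fold change and GC content had a Spearman coefficient of -0.27 (n = 15760 genes). Over the 37 subunits it was -0.21. With transcript length the coefficient was -0.13 over those rows and -0.30 over the subunits. These are descriptions across genes that share libraries. The median transcript length was 782 bases for the subunits and 2267 bases for all rows tested. The median GC content was 52.7% for the raised and 55.5% for the fallen subunits. Of the 19 subunits past the threshold 13 kept their call in all 6 adjustments for GC content, length or both, and of the 3 assembly factors 1 did. With the GC content adjustment Ndufa2 still had the largest rise, at 1.12, while the largest fall was that of Ndufaf4 at -1.27, ahead of Ndufa4l2 at -1.14. Ndufs4, a peripheral accessory subunit with a transcript GC content of 43.1%, had a log2 fold change of 0.079 without an adjustment and was called lower with it (-0.37, adjusted p = 0.0323, edgeR).

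**Figure D5:**
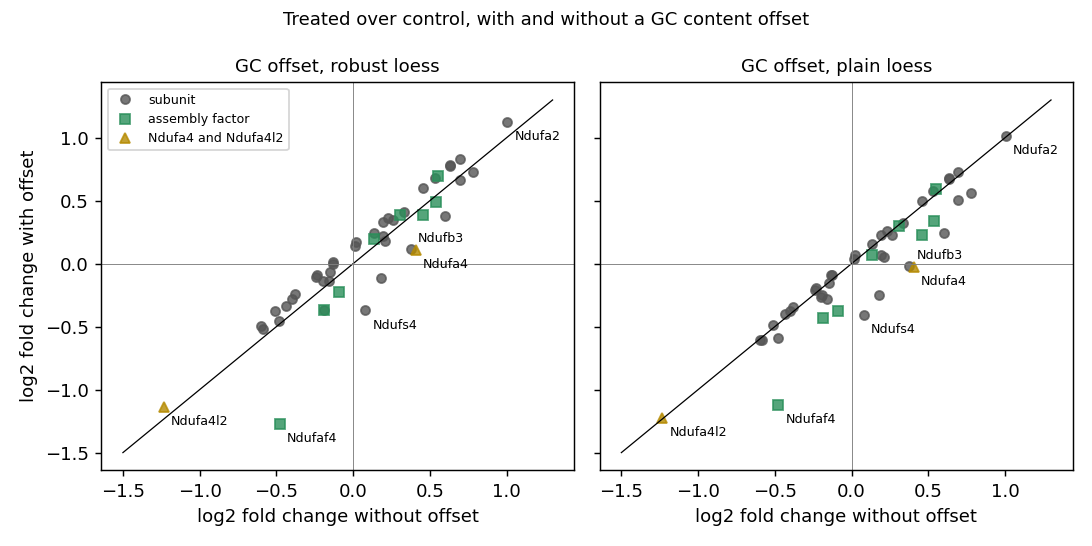
Log2 fold change of 46 of the 47 members, treated over control, without an adjustment (x axis) and with a transcript GC content adjustment in its robust and its earlier, plain form (y axis, left and right panel). Most points lie near the line of equality, and Ndufaf4 falls far below it in both panels, at -1.27 and -1.12.

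The start regions of the genes hold letters known as binding motifs of factors that drive respiratory chain genes. RefSeq entries of 300 bases (250 before and 50 after the start, build GRCm38.p6) matched 41 members with 43 promoters, and Ndufa2, Ndufa4l2, Ndufaf6, Ndufb9 and Ndufs1 were among those with no match. Both strands were searched, and windows may overlap other motifs. The NRF1 letters, GCGCA and GCGC with any 1 base between them, were in 10 of 43 promoters (23.3%), against 4.60% of all 32851 promoters. The YY1 letters AAGATGG were in 8 (18.6%, against 6.34%), and the GABP letters CCGGAAG in 6 (14.0%, against 8.86%). The letters ACGTG or GCGTG, the core bound by hypoxia-inducible factors, were in 26 (60.5%, against 43.8%). Promoters of Ndufa5 overlap each other, as do those of Ndufa7. The same NRF1 site of Ndufa5 and the same ACGTG of Ndufa7 are therefore counted in each of their promoters. A match is a description of these letters and shows no binding.

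Windows of 30 bases show the YY1 letters of all 8 promoters. In each of them the letters stand on the gene's own strand after the start, as they do in 20.5% of all promoters with these letters. AAGATGG holds ATG, the letters of a start codon, and the part of this in their position was not tested. Capitals mark the letters, each window is read on the strand of its gene, and positions are GRCm38.p6.
Ndufc1 (chr3:51408916-51408945, minus, raised): agcctgcggaacAAGATGGcgccgtccgta
Ndufs7 (chr10:80249461-80249490, plus, raised): aaggccgaggccAAGATGGcggcgctggcg
Ndufb8 (chr19:44555393-44555422, minus, fallen): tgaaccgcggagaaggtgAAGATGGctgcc
Ndufa3 (chr7:3617383-3617412, plus, did not pass): gccgccaagaacAAGATGGccgggagtaag
Ndufa9 (chr6:126849098-126849127, minus, did not pass): gcattgtgggagAAGATGGcggccgccgtc
Ndufaf8 (chr11:120098932-120098961, plus, did not pass): gaggcagggcccAAGATGGcggcgccctcg
Ndufs4 (chr13:114388045-114388074, minus, did not pass): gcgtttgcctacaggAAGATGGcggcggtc
Ndufs6 (chr13:73328433-73328462, minus, did not pass): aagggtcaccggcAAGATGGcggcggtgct

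The NRF1 letters are shown for both raised genes that hold them, for Ndufb4, which holds them at 3 places, and for Ndufaf4. Capitals mark the letters or their reverse complement, in the same build.
Ndufa6 (chr15:82354249-82354278, minus, raised): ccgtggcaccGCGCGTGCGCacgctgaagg
Ndufaf5 (chr2:140170652-140170681, plus, raised): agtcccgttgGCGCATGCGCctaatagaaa
Ndufaf4 (chr4:24897960-24897989, plus, did not pass): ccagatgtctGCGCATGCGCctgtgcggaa
Ndufb4 (chr16:37654540-37654569, minus, did not pass): gagaagcagtGCGCACGCGCagaatacgcg
Ndufb4 (chr16:37654428-37654457, minus, did not pass): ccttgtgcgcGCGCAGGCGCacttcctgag
Ndufb4 (chr16:37654371-37654400, minus, did not pass): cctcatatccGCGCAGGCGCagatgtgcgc

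Counts of motif letters by direction were small. The NRF1 letters were in 2 of 15 promoters of raised members, none of 7 of fallen members and 8 of 21 of members that did not pass. The YY1 letters were in 2 of 15 promoters of raised, 1 of 7 of fallen and 5 of 21 of the other members. The GABP letters were in none of 15 promoters of raised, 1 of 7 of fallen (Ndufs8) and 5 of 21 of the other members. The ACGTG or GCGTG letters were in 11 of 15 promoters of raised, 5 of 7 of fallen and 10 of 21 of the other members. The overlapping promoters of Ndufa5, which did not pass, and of the raised Ndufa7 are counted separately here, and these shares were not tested.

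Near-identical copies and shared spans limit some rows. The file holds separate rows for Ndufb4b and Ndufb4c, copies of Ndufb4, for Ndufs6b, and for pseudogenes of Ndufa12, Ndufab1 and Ndufs5. Ndufb4c was higher (36.5 ± 2.30 FPKM in treated, 27.0 ± 1.03 FPKM in control, log2 fold change 0.40, adjusted p = 0.0285, edgeR), while Ndufb4 itself, with 25.9 ± 2.35 FPKM in treated and 25.1 ± 1.27 FPKM in control libraries, did not pass. Adding the copies to their genes changed no call of a member. The spans of 18 members overlap another row of the file, 16 of them on the opposite strand.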

How the data were processed

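RNA was measured in 3 treated and 3 control libraries, with groups and numbers taken from their titles. Poly(A) RNA was selected, the second strand marked with dUTP, and fragments read from both ends, per the labels' protocols. Whether libraries of a group are separate cultures is not stated: the p-values then rest on a spread between samples that may be technical. For every gene and library the authors deposited FPKM and an estimated count, per the file headers. Trimming, alignment and assembly tools in the submitters' processing notes are StringTie 2.1.6, HISAT2 2.2.1 and cutadapt 1.9, beside edgeR and DESeq2. Build, annotation and the use of strand in counting were not stated in the sources used here, and only 404 of 23981 matched genes have the same start and end as in GENCODE M21 (GRCm38). The deposited estimated counts are whole numbers, too frequent at a count of 4 (4054 values, against a mean of 2539.5 at 3 and 5). Totals of 62328377 to 81821380 estimated counts set the precision.

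Groups were compared with the quasi-likelihood test of edgeR 4.0.16 (R 4.3.3) on the deposited estimated counts, with TMM scaling and edgeR's default filter, 2-sided, with Benjamini-Hochberg adjustment over 16212 rows and a threshold of 0.05. Group values are mean FPKM ± SD (n = 3). Standard errors come from the fold change and the F statistic. Limma 3.58.1, DESeq2 1.42.0, other scalings and filters, a replicate block and each library left out were among 27 alternatives. The members and lists were chosen with earlier results of these data known. Values per library are given for the Ndufaf genes, the core subunits (1 gene is not reported here, though it entered the fits, counts and sums), the 8 raised and 8 fallen members with the largest change past the threshold and no overlap, the most abundant member, Ndufa4 and Ndufa4l2. From each other list up to 4 genes with the smallest p past the threshold and the most abundant one that did not pass are named, and others among those past the threshold were named after their values were seen.

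Adjustments for GC content and length used a loess fit per library (span 0.4) on GENCODE M21 transcripts. They exist in 2 forms. The first form used plain loess and the median over all protein-coding transcripts of a gene. After its output had been seen it was replaced by robust loess and basic-set transcripts. Both forms are kept, and adjusted values are from the robust form unless the first, earlier form is named. The adjustment for GC content and length together and the sums with copies were also chosen after seeing the data. Replicate numbers did not pair the libraries: deviations of same-numbered libraries had correlations of 0.0399, -0.1034 and 0.0065.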

Additional observations from a re-analysis of the deposited data

How the results depend on the processing

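Counts moved with the scaling and with the adjustments for GC content and transcript length, and the cause was not tested. Subunits called higher, 12 without an adjustment, numbered 8 with either form of length and with first-form GC content and length, 16 with library totals and 17 with upper-quartile scaling. Of 19 subunits past the threshold, 12 kept their call in all 27 alternatives and 18 in every fit with 1 library left out, and of 3 assembly factors 1 and 3 did. Subunits called lower, 7 without an adjustment, numbered 14 with robust length, 14 with robust GC content and length, and, in the first form, 13 with GC content, 15 with length, 17 with both and 11 with GC content and a replicate block. Assembly factors called higher, 3 without an adjustment, numbered 1 in the first form with length, with both and with GC content and the block. Assembly factors called lower numbered 2, against 0, in every GC content or length adjustment except robust length. The 2 forms of the GC content adjustment disagreed over all rows, with 3664 higher and 4221 lower in the robust and 2952 higher and 5081 lower in the first form, where the median of all rows was -0.10. The robust form was chosen after seeing the output of the first.

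The median log2 fold change of subunits, 0.079, was 0.14 with robust GC content, 0.14 with robust GC content and a replicate block, -0.077 with robust length, -0.082 with robust GC content and length, -0.15 with first-form length, -0.10 with first-form GC content and length, 0.15 with library totals and 0.20 with upper-quartile scaling, which moved the median of all rows to 0.18, against 0.058. With 1 library left out it lay between 0.051 and 0.14. The median of assembly factors, 0.22, was 0.10 with robust GC content and length, 0.021 with robust length, 0.071 with first-form GC content and length, -0.023 with first-form length, 0.34 with upper-quartile scaling, and 0.33 and 0.31 in limma with a pseudocount of 0.1 and 1, 0.31 also at a mean FPKM of at least 5. That filter left 4363 rows past the threshold, against 7548.

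The replicate block alone gave 6275 rows past the threshold, with 11 subunits higher and 7 lower and 3 assembly factors higher, and numbers do not pair the libraries. Log2 fold changes that turned were as follows. With first-form GC content: Ndufa4 -0.024, Ndufb3 -0.021, Ndufs4 -0.41, mt-Nd4 -0.11, mt-Nd6 -1.24, Nubpl -0.47 and Tfam -0.26, and with the block added -0.030, -0.025, -0.41, -0.13, -1.24 and -0.46 for the first 6. With first-form GC content and length: Ndufa4 -0.19, Ndufb3 -0.14, Ndufs4 -0.51, Ndufv2 -0.36, mt-Nd4 -0.16, mt-Nd6 -1.41, Nubpl -0.38 and Tfam -0.36. With robust GC content: Ndufs4 -0.37, mt-Nd4 -0.12, mt-Nd6 -1.33 and Nubpl -0.34, and with the block added mt-Nd4 -0.15, while the mt-Nd6 log2 fold change was -1.34. With robust GC content and length: Ndufa4 -0.21, Ndufb3 -0.11, Ndufs4 -0.38, mt-Nd4 -0.18, mt-Nd4l -0.045, mt-Nd6 -1.64 and Tfam -0.22. With robust length Ndufa3 was -0.31. With counts divided by 4, 16 members were higher and 9 lower, Ndufa8 being the added one (-0.22, adjusted p = 0.0491, edgeR).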
